A study of Mus musculus with 11 samples.

Results

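The tripartite motif (Trim) genes of mouse macrophages were examined by RNA sequencing after the cells received a microRNA-150 (miR-150) mimic or a negative control. Members were the protein-coding genes named Trim followed by a number and at most one letter a to e, 67 of the 31936 genes in the table. Of these, 42 had a log2 CPM (log2 of reads scaled to library size, by the authors) of at least -1 in at least 5 libraries and were tested, among 12969 such genes in all. The other 25 were too low to test.

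The cells were thioglycollate-elicited peritoneal macrophages from female mice, the inflammatory macrophages that gather in the abdominal cavity after an irritant. The control group held 5 libraries and the mimic group 6, a mimic being a made RNA duplex that adds to the microRNA in a cell. The labels give no strain, age, dose or time after treatment, nor say whether replicates were separate animals or cultures, so p-values measure the spread between these libraries, which may be technical. By its title, the series asks how this microRNA in macrophages bears on pathological vessels in an eye disease, macular degeneration.

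A TRIM protein carries a RING domain, B-box zinc fingers and a coiled coil, and most act as ubiquitin ligases whose C-terminal domain picks the target. The largest class ends in a PRY-SPRY domain, which binds proteins such as viral capsids, antibodies or sensors of foreign RNA. In macrophages several TRIM proteins adjust antiviral and inflammatory signalling, and a number of their genes are themselves induced by interferon through the interferon-stimulated response element, a promoter motif.

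Libraries held 18538509 to 25473814 reads assigned to genes. The 8 macrophage markers summed to 18086 to 20403 CPM in controls and 16310 to 19698 CPM with the mimic. Markers of B cells, T cells, mast cells, mesothelial cells and dendritic cells summed to at most 7.32 CPM in any library, and the neutrophil markers to at most 17.7 CPM. No marker of any list was at 0 in all libraries. The 4 eosinophil markers ranged from 33.4 to 36.4 CPM in controls and from 27.4 to 28.9 CPM with the mimic, and their part in the results was not tested. Mimic replicates 3, 4 and 6 stood apart in relation to transcript length: per doubling of exon length their log2 CPM rose by 0.050, 0.077 and 0.063 against each gene's mean, while the other mimic libraries lay between -0.054 and 0.012 and the controls between -0.041 and -0.021. Mimic replicate 1, at -0.054, lay below every control and had the lowest sample weight in the voom fit (0.356). Without it 2693 of all tested genes were higher and 2506 lower, against 1997 and 1895 with all libraries. Values without mimic replicates 3, 4 and 6 are given where they matter, and these keep replicate 1. In bulk RNA, fewer cells of a type and less RNA per cell cannot be told apart.

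The promoters of the responding genes are shown first, because several relatives share the sequence around one motif. In RefSeq windows of GRCm38.p6, 250 bases before to 50 after the start site, 31 of the 42 tested members had an entry. The motif searched was GAAA, any 2 bases, then GAAA again, which reads TTTC, any 2 bases, TTTC on the other strand. It is a core of the interferon-stimulated response element, and overlapping matches were counted. It was present for 9 of the 31 members and for 3.99% of all 27025 genes with a window. Among the members called higher with the mimic, 8 of the 14 with a window held it, against 0 of 3 called lower and 1 of 14 not called (Trim2). Each line below gives the strand of the gene, 5′ to 3′, with the motif in capitals. Trim5 (chr7:104288136-104288185), Trim12a (chr7:104315466-104315515) and Trim12c (chr7:104353359-104353408), all on the minus strand, are neighbouring relatives of primate TRIM5, which blocks retroviral capsids.
Trim5: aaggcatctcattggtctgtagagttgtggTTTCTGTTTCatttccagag
Trim12a: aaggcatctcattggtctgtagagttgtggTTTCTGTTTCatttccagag
Trim12c: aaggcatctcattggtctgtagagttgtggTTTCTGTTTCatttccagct
Over these 50 bases Trim5 and Trim12a differed at 0 positions and Trim12c differed from each at 2. The annotated start site moved along this shared sequence: the motif began 49 bases before it in Trim5 and 29 before it in Trim12c, but 10 bases after it in Trim12a. The windows of Trim30a (chr7:104465210-104465259, minus strand) and Trim30d (chr7:104507871-104507920, minus strand) also shared all 50 bases, with the motif 36 and 41 bases before the start. A second RefSeq window of Trim30a (stretch at chr7:104446104-104446153, minus strand), for another start site, held a match of its own 2 bases after that start.
Trim30a: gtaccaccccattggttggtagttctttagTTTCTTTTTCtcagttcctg
Trim30d: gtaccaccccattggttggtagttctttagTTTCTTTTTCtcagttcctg
Trim30a, second window: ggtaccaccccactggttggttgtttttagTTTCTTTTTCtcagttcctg
Trim34a (chr7:104244437-104244486, plus strand), Trim21 (chr7:102565453-102565499, minus strand) and Trim26 (chr17:36836956-36837011, plus strand) also held the motif, Trim21 and Trim26 as overlapping pairs of matches.
Trim34a: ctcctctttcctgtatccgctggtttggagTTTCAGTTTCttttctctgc
Trim21: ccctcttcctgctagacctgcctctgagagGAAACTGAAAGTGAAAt
Trim26: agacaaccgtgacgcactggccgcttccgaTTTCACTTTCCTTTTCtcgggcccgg
The windows of Trim30b, Trim30c, Trim6, Trim25, Trim56 and Trim23 held no match, which says only that these letters are not in these windows. The gamma-activated motif TTCNNNGAA was present for 3 of the 31 members (Trim30c, Trim45 and Trim46) and 9.55% of all genes with a window.

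With the mimic, 15 of the 42 tested Trim genes were higher and 4 lower (limma with Benjamini-Hochberg adjustment over all 12969 genes, adjusted p below 0.05). Over all tested genes 15.4% were higher and 14.6% lower. The median log2 fold change was 0.090 over the Trim genes and 0.0007 over all genes. By the authors' deposited table, higher calls numbered 14 of the 42 and lower calls 4, against 11.1% and 10.5% of all tested genes, and each was also called here in the same direction. Every mimic library lay above every control for 13 Trim genes and below for 1, against 8.89% and 6.04% of all tested genes. Of the called rises, 9 were of at least 0.5 on the log2 scale (2.84% of all tested genes) and 4 of at least 1 (1.15%).

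**Figure D1:**
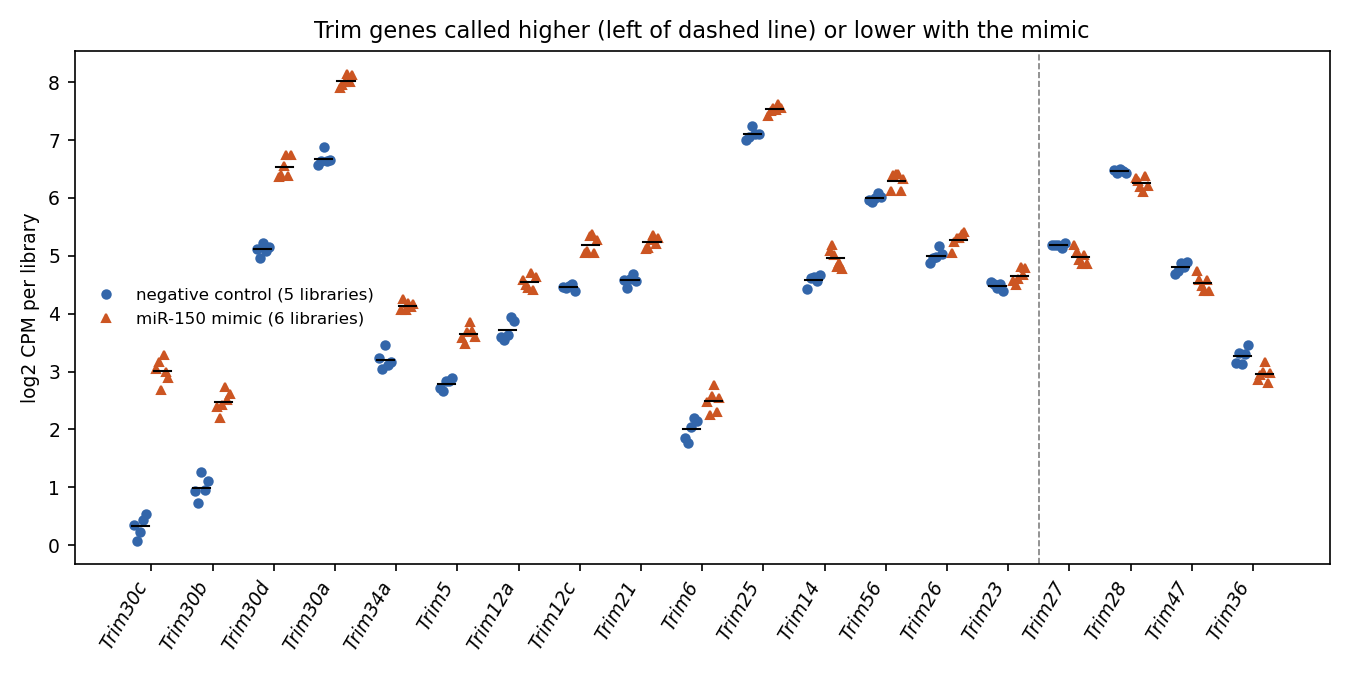
Log2 CPM of each library (vertical axis) for the 19 Trim genes called with the mimic, ordered by log2 fold change; circles are the 5 control and triangles the 6 mimic libraries, horizontal lines the group means. The Trim30 genes show the widest gaps, and for Trim26, Trim23, Trim27, Trim47 and Trim36 the groups overlap.

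The 4 Trim30 genes had the largest changes of the family. They lie side by side on chromosome 7 and encode PRY-SPRY ligases. Trim30a (ENSMUSG00000030921, chromosome 7, 104409025 to 104465193, GRCm38), the best studied of them, dampens NF-kappaB signalling by removing the adaptors TAB2 and TAB3. Its log2 CPM was 6.57, 6.63, 6.88, 6.64 and 6.66 in control replicates 1, 2, 3, 4 and 6, and 7.90 to 8.14 with a median of 8.01 in the 6 mimic libraries. The lowest mimic library was thus more than a log2 unit above the highest control, replicate 3. Trim30a rose 2.54-fold, by 1.34 ± 0.057 on the log2 scale (SE; limma adjusted p = 2.27e-11). Trim30d measured 5.11, 4.97, 5.22, 5.09 and 5.16 in the controls and 6.36 to 6.74 with the mimic (median 6.47). The highest mimic values of Trim30d, 6.74, were in replicates 4 and 6. Its rise was 1.42 ± 0.074 (SE; limma adjusted p = 3.94e-10), and 1.27 without mimic replicates 3, 4 and 6 (limma adjusted p = 1.94e-16). Trim30b, expressed at a far lower level, measured 0.94, 0.72, 1.27, 0.95 and 1.10 in the controls and 2.19 to 2.74 with the mimic (median 2.46), a rise of 1.48 ± 0.12 (SE; limma adjusted p = 5.64e-08).

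Trim30c rose more than its neighbours. Its log2 CPM was 0.34, 0.08, 0.23, 0.43 and 0.54 in the controls and 2.68 to 3.29 with the mimic, with a median of 3.02. All controls were between 0.08 and 0.54 and all mimic libraries more than 2 units above them. The log2 fold change was 2.69 ± 0.12 (SE), or 6.45-fold (limma adjusted p = 3.09e-11). Within each library the log2 ratio of Trim30a to Trim30c dropped from 6.35 ± 0.23 (SD, n = 5) without the mimic to 5.01 ± 0.23 (SD, n = 6) with it. That difference of -1.35 had a two-sided exact permutation p of 0.00433, the smallest that 462 label assignments allow, and an adjusted p of 0.026 over the 12 pairs of relatives compared. The ratios of Trim30a to Trim30d and to Trim30b moved by -0.076 and -0.14, which did not pass (exact permutation test, adjusted p = 0.292 and 0.234). Few 50-base words of the annotated Trim30 transcripts occur in another gene: 0.7% for Trim30c, 1.5% for Trim30b, 6.0% for Trim30a and 7.5% for Trim30d, the last 2 mostly shared with each other.

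The neighbouring Trim34a, Trim5, Trim12a and Trim12c rose together, and each had no overlap between groups. Trim34a measured 3.23, 3.04, 3.46, 3.12 and 3.16 in the controls and 4.06 to 4.25 with the mimic (median 4.14), a rise of 0.94 ± 0.071 (SE; limma adjusted p = 3.88e-08). Trim5 measured 2.71, 2.66, 2.84, 2.84 and 2.88 in the controls and 3.48 to 3.85 with the mimic (median 3.65), a rise of 0.86 ± 0.072 (SE; limma adjusted p = 1.50e-07). Trim12a went from 3.60, 3.55, 3.63, 3.95 and 3.88 to 4.41 to 4.70 (median 4.54), by 0.82 ± 0.078 (SE; limma adjusted p = 7.31e-07). In the controls Trim12a was split, with replicates 4 and 6 above the other 3. Trim12c went from 4.46, 4.44, 4.48, 4.52 and 4.39 to 5.04 to 5.37 (median 5.18), by 0.73 ± 0.064 (SE; limma adjusted p = 2.68e-07). Its mimic libraries fell into a lower set, replicates 1, 2 and 5 at 5.04 to 5.08, and a higher set, replicates 3, 4 and 6 at 5.28 to 5.37, and the change without the latter was 0.60 (limma adjusted p = 1.97e-09).

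Single values in this row of relatives are uncertain, because how the authors' counting treated reads shared between copies was not given. Of the 50-base words of Trim34a, 59.7% occur elsewhere (39.8% in Trim34b), and of those of Trim5 36.6%, mainly in Trim12c (23.5%). Trim34a also shares 23.5% of its exon bases with Gm47248 on the other strand. Trim34b had 4 reads in the 5 controls together and 16 in the 6 mimic libraries. The within-library ratios of Trim12a to Trim12c and of Trim5 to Trim12c moved by 0.088 and 0.13, neither of which passed (exact permutation test, adjusted p = 0.479 and 0.229).

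Further along the chromosome 7 row, Trim6, which builds free ubiquitin chains that activate the kinase IKK-epsilon, measured 1.86, 1.77, 2.05, 2.19 and 2.14 in the controls and 2.25 to 2.77 with the mimic (median 2.51). The lowest mimic library was just above the highest control. Its rise of 0.48 ± 0.11 (SE; limma adjusted p = 0.00377) became 0.34 without mimic replicates 3, 4 and 6 and did not pass (limma adjusted p = 0.0541). Trim21, the intracellular antibody receptor, lies apart from the row on the same chromosome. It measured 4.59, 4.45, 4.60, 4.68 and 4.57 in the controls and 5.11 to 5.36 with the mimic (median 5.24), with no overlap and a rise of 0.66 ± 0.056 (SE; limma adjusted p = 1.88e-07). Its neighbour Trim68 measured -0.070 ± 0.090 (SE; limma adjusted p = 0.58). The log2 ratio of Trim21 to Trim68 rose from 2.10 ± 0.21 (SD, n = 5) to 2.83 ± 0.095 (SD, n = 6; exact permutation test, adjusted p = 0.026), with all 6 mimic libraries above all controls.

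**Figure D2:**
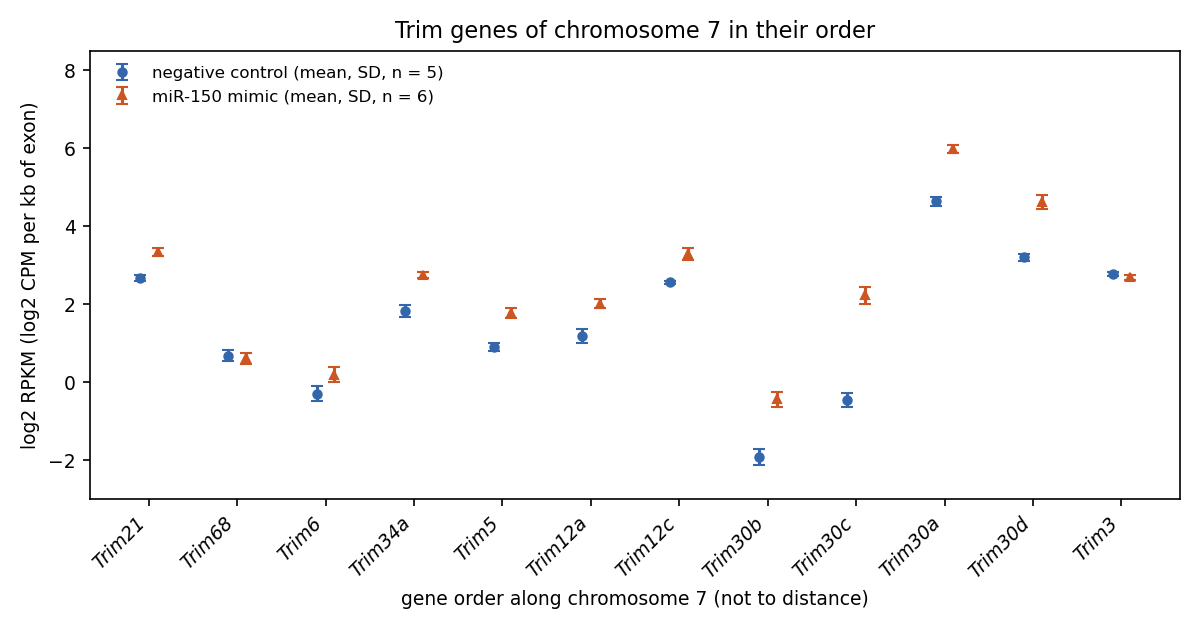
Mean log2 RPKM (log2 CPM per kilobase of exon, vertical axis; bars are SD) of the 12 tested members from Trim21 to Trim3 on chromosome 7, in gene order and not to distance, in 5 control (circles) and 6 mimic (triangles) libraries. Of these 12, all but Trim68 and Trim3 were called higher, and Trim30a had the highest level in both groups; Trim28, elsewhere on the chromosome and called lower, is not plotted.

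Of the 12 tested members on chromosome 7 from Trim21 to Trim3, 10 were higher and 0 lower, with Trim68 and Trim3 not called. Of the other 30, which include Trim28 elsewhere on chromosome 7, 5 were higher and 4 lower, beside 15.4% and 14.6% of all tested genes. Trim25, the ligase that activates the RNA sensor RIG-I, had 7.00, 7.06, 7.25, 7.11 and 7.11 in the controls and 7.41 to 7.63 with the mimic (median 7.54). Every mimic library was above every control, and the rise was 0.43 ± 0.049 (SE; limma adjusted p = 7.09e-06). Trim14, an adaptor without a RING domain that joins antiviral signalling at mitochondria, had 4.43, 4.61, 4.63, 4.57 and 4.66 in the controls and 4.77 to 5.18 with the mimic (median 4.95), a rise of 0.38 ± 0.072 (SE; limma adjusted p = 0.00133). Its exons overlap those of Nans on the opposite strand over 31.3% of their bases, and since the strand setting was not given, reads of the pair cannot be told apart. Nans itself measured -0.29 ± 0.054 (SE; limma adjusted p = 0.00128), the opposite direction.

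Trim56, which acts in the cytosolic DNA and RNA sensing pathways, had 5.96, 5.93, 5.99, 6.09 and 6.01 in the controls and 6.12 to 6.41 with the mimic (median 6.37). The groups were separate but close, the lowest mimic libraries, replicates 1 and 5, standing just above control replicate 4. The rise was 0.30 ± 0.060 (SE; limma adjusted p = 0.00194). Trim26, reported to limit interferon-beta production, rose by 0.27 ± 0.064 (SE; limma adjusted p = 0.00588), from 4.88 to 5.17 in the controls to 5.05 to 5.41 with the mimic. The ranges of Trim26 overlapped, through control replicate 4 and mimic replicate 1. Trim23, a ligase with a GTPase domain of the ARF type, rose by 0.17 ± 0.059 (SE; limma adjusted p = 0.0408) with overlapping groups, and this call was lost in 13 of the 20 alternatives, with an adjusted p of up to 0.293.

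The list of 16 Trim genes known to respond to interferon, which was written with earlier results of these data known, had 13 tested members, and 13 were higher (median log2 fold change 0.82). Trim34b, Trim38 and Trim69 of that list were too low to test. Of the 29 tested members outside it 2 were higher, Trim6 and Trim23, and 4 were lower. The shares over all tested genes were 15.4% higher and 14.6% lower. By listed domain class, with members that lack a RING, such as Trim14, set apart, 12 of 23 PRY-SPRY members were higher and 2 lower. Of the 19 members of other classes 3 were higher and 2 lower, beside 15.4% and 14.6% of all tested genes. The 10 higher members from Trim21 to Trim3 on chromosome 7 are all listed as PRY-SPRY, so the counts by class and by location overlap. Among PRY-SPRY members elsewhere, Trim25 and Trim26 were higher and Trim27 and Trim47 lower. Whether class or location goes with the change was not tested. The classes were listed by gene name and not checked against protein sequences, so single members may be misplaced. The COS box class was listed with or without PRY-SPRY, so this is not a clean split by that domain.

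**Figure D3:**
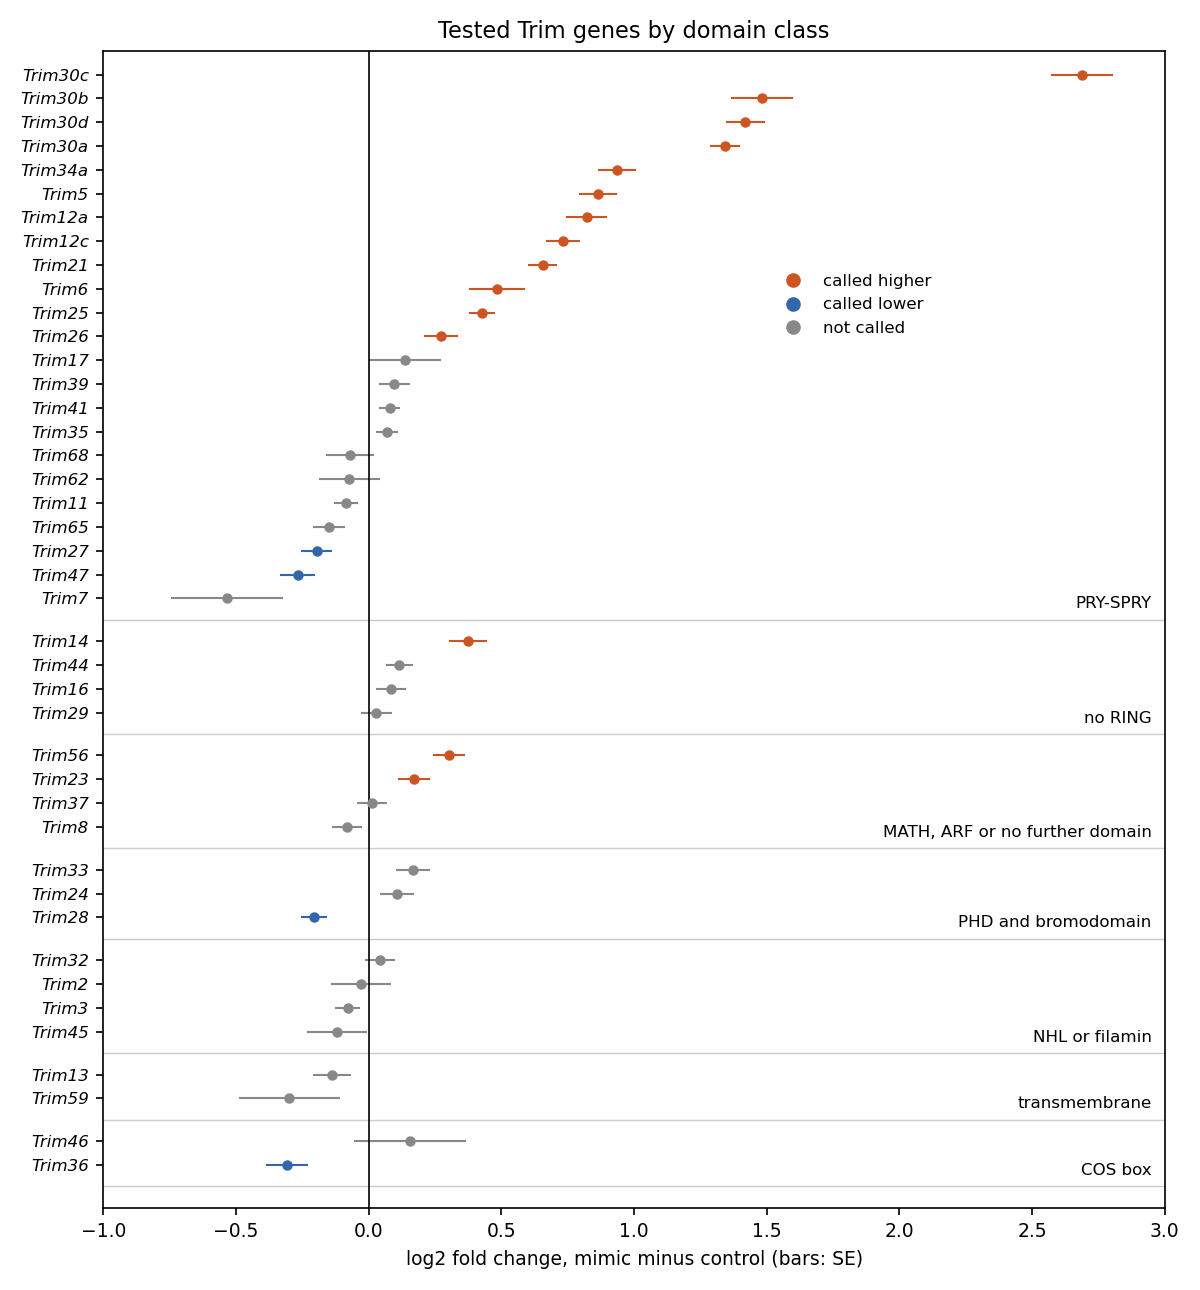
Log2 fold change of the 42 tested Trim genes (horizontal axis, mimic minus control; bars are SE), grouped by domain class. The rises above 0.5 all fall in the class listed as PRY-SPRY, and all belong to genes from Trim21 to Trim3 on chromosome 7. The NHL or filamin and transmembrane classes have no called member. Classes were listed by gene name and not checked against protein sequences.

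The 4 lower genes changed by less than 0.31 on the log2 scale. Trim28, known as KAP1, is the scaffold that silences endogenous retroviruses with KRAB zinc finger proteins. It was the only member with every mimic library below every control: 6.48, 6.43, 6.50, 6.46 and 6.43 against 6.11 to 6.38 (median 6.24). Its change was -0.21 ± 0.049 (SE; limma adjusted p = 0.00618). Without mimic replicates 3, 4 and 6 it was -0.12, with a limma adjusted p of 0.033. The related Trim24 and Trim33, nuclear coregulators with a PHD finger and a bromodomain, measured 0.11 ± 0.065 and 0.17 ± 0.063 (SE; limma adjusted p = 0.222 and 0.0546). The difference of Trim28 from Trim24, -0.31 in the within-library log2 ratio, did not pass after adjustment (exact permutation test, adjusted p = 0.0519).

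Trim36, a ligase that binds microtubules, measured 3.14, 3.32, 3.13, 3.30 and 3.45 in the controls and 2.80 to 3.16 with the mimic (median 2.96). Mimic replicate 4 overlapped the 2 lowest controls. The change was -0.31 ± 0.079 (SE; limma adjusted p = 0.00902), and -0.40 without mimic replicates 3, 4 and 6 (limma adjusted p = 0.00199). Trim47 measured 4.68, 4.74, 4.87, 4.81 and 4.89 in the controls and 4.40 to 4.74 with the mimic (median 4.52), a change of -0.27 ± 0.065 (SE; limma adjusted p = 0.00659). Trim27, which targets the kinase TBK1, measured 5.18, 5.18, 5.18, 5.13 and 5.22 in the controls and 4.85 to 5.19 with the mimic (median 4.96), a change of -0.20 ± 0.059 (SE; limma adjusted p = 0.0207). For both genes mimic replicate 1 lay among the controls and replicates 4 and 6 were lowest. Without mimic replicates 3, 4 and 6 neither passed: Trim47 was at -0.16 (limma adjusted p = 0.0636) and Trim27 at -0.088 (limma adjusted p = 0.259). Trim47 overlaps Trim65 by 225 exon bases on the same strand, and Trim65 measured -0.15 ± 0.061 (SE; limma adjusted p = 0.0735).

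**Figure D4:**
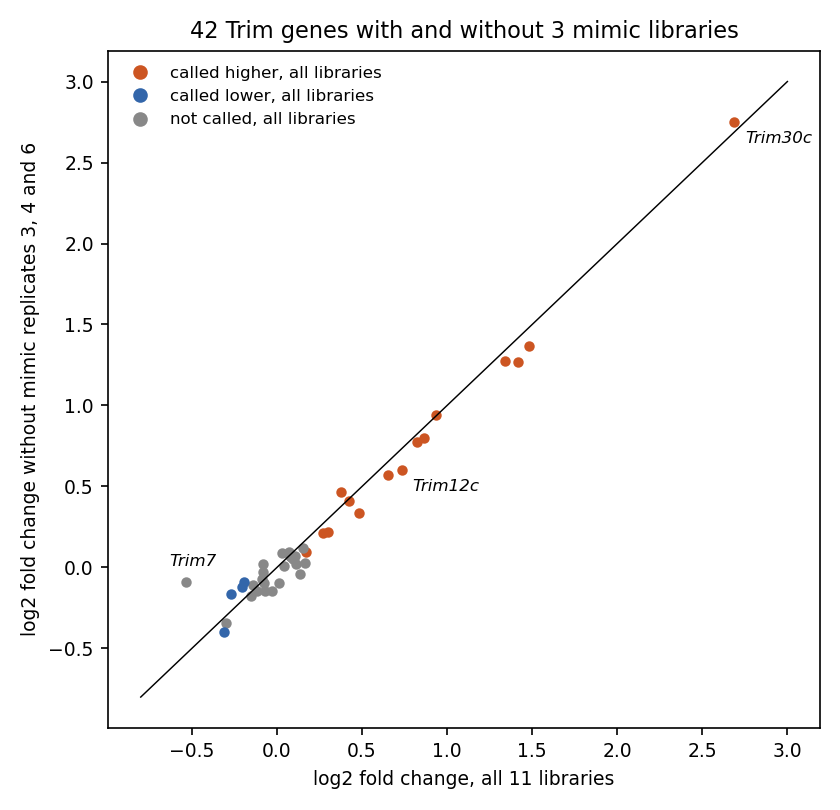
Log2 fold change of the 42 tested Trim genes with all 11 libraries (horizontal axis) and without mimic replicates 3, 4 and 6 (vertical axis); the line marks equal values. The large rises lie near the line (Trim30c at 2.69 and 2.75), and Trim7 is farthest from it (-0.54 and -0.092).

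Trim7, a PRY-SPRY ligase that binds glycogenin, shows the split of the mimic group most clearly. It measured 0.83, 0.49, 0.69, 0.98 and 0.91 in the controls, 0.53, 0.62 and 0.91 in mimic replicates 1, 2 and 5, and -0.10, -0.25 and -0.25 in replicates 3, 4 and 6. The first 3 mimic libraries lay within the control range and the last 3 below it. Its change of -0.54 ± 0.21 (SE) did not pass (limma adjusted p = 0.0653), and was -0.092 without the last 3 (limma adjusted p = 0.791). Trim33 split the other way, at 5.77, 5.84 and 5.79 in mimic replicates 1, 2 and 5 and 6.02, 6.11 and 6.10 in replicates 3, 4 and 6, against 5.75 to 5.80 in the controls. Without the last 3 its change was 0.028 (limma adjusted p = 0.717).

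In all, 23 of the 42 members were not called, with log2 fold changes from -0.54 to 0.17, and 21 of these were within 0.2 of 0, the exceptions being Trim7 and Trim59 (-0.30 ± 0.19, SE; limma adjusted p = 0.249). They include Trim35, a ligase for the interferon transcription factor IRF7 (0.069 ± 0.041, SE), Trim41 (0.079 ± 0.040), Trim44, which has a deubiquitinase-type zinc finger (0.12 ± 0.050), Trim8, of tumour necrosis factor signalling (-0.083 ± 0.057), Trim37, a ligase of centrosomes and peroxisomes (0.011 ± 0.056), Trim32, known from muscle (0.042 ± 0.057), and Trim13, anchored in the endoplasmic reticulum (-0.14 ± 0.072). The rest were Trim46, Trim17, Trim39, Trim16, Trim29, Trim2, Trim62, Trim3, Trim11, Trim45 and Trim59, besides Trim7, Trim24, Trim33, Trim65 and Trim68. Trim17 shares 708 exon bases on the same strand with the histone gene Hist3h2a, so its value of 0.14 ± 0.14 (SE) is uncertain.

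Levels were compared between genes per length, as log2 RPKM, the log2 CPM less the log2 of the annotated exon length in kilobases. In controls Trim35 was highest at 4.98, followed by Trim30a at 4.64, Trim25 at 4.58, Trim28 at 4.40 and Trim41 at 4.11, all at or above the 81st percentile of tested protein-coding genes. Trim30a and Trim25 differed by less than the spread of Trim30a between control libraries (SD 0.12, n = 5). With the mimic Trim30a became the highest at 5.98, ahead of Trim35 at 5.05 and Trim25 at 5.01, and Trim30d moved from 3.20, the 10th level, to 4.62, the 4th. Trim30c went from -0.45 to 2.23. Exon length counts every annotated exon once, so genes with long rarely used exons, such as Trim2 with 19751 bases, are placed too low.

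At the limit of the filter, Trim46 reached it in 3 control and 4 mimic libraries (means of -1.0 and -0.85), while Trim15 reached it in 3 libraries and was left out, with 29 reads in all controls and 73 in all mimic libraries. The other 24 members left out were Trim9, Trim10, Trim31, Trim34b, Trim38, Trim40, Trim42, Trim43a, Trim43b, Trim43c, Trim50, Trim52, Trim54, Trim55, Trim58, Trim60, Trim63, Trim66, Trim67, Trim69, Trim71, Trim72, Trim75 and Trim80. Each had at most 31 reads over a group of libraries, and Trim43b and Trim54 had 0 over the controls.

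The genes that TRIM ligases work with were counted from lists written with the earlier results known. Of 24 measured genes of RNA and DNA sensing, 15 were higher and 0 lower (median change 0.21 on the log2 scale), beside 15.4% and 14.6% of all tested genes. With each library left out, 12 to 17 were higher and 0 to 1 lower. Ddx58, which encodes RIG-I, the target of Trim25, went from 6.09 ± 0.15 (SD, n = 5) to 7.58 ± 0.081 (SD, n = 6) log2 CPM. Ifih1 rose by 1.28, Dhx58 by 1.35 and Irf7 by 2.51 on the log2 scale, with separate groups for each (limma adjusted p of at most 5.31e-09). Zc3hav1, the antiviral protein ZAP that needs Trim25, rose by 0.37 ± 0.041 (SE; limma adjusted p = 5.10e-06). Mavs, the adaptor that RIG-I signals through, measured 0.021 ± 0.046 (SE; limma adjusted p = 0.754).

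Of 27 activating and conjugating enzymes for ubiquitin, ISG15 and SUMO, 4 were higher and 1 lower (median 0.040), a share of higher genes near the 15.4% of all tested genes. Without mimic replicate 4 or without mimic replicate 6, 2 were higher. The lower genes numbered 2 without control replicate 2 and 4 without mimic replicate 1. The large rises were in the ISG15 enzymes, Ube2l6 by 1.41 ± 0.077 and Uba7 by 0.93 ± 0.061 (SE; limma adjusted p of at most 6.11e-09). Ube2b, a ubiquitin-conjugating enzyme of DNA repair, fell by 0.23 on the log2 scale (limma adjusted p = 0.00255). Ube2n, the partner of TRIM ligases for K63-type chains, measured 0.095 ± 0.073 (SE; limma adjusted p = 0.339) and was chosen for its role after its value was seen. Of 17 partners of Trim28, Trim24 and Trim33, 5 were higher and 0 lower (median 0.097), beside 15.4% and 14.6% of all tested genes. The higher genes numbered 3 without control replicate 6 or mimic replicate 3, 9 without mimic replicate 1, and 2, Daxx and Morc3, without mimic replicates 3, 4 and 6. The 2 largest changes were in Daxx (0.89 ± 0.046) and Morc3 (0.63 ± 0.050, SE; limma adjusted p of at most 6.33e-08), which are better known from PML nuclear bodies than from the Trim28 complex. Ncor1 and Cbx1 rose by 0.22 and 0.19 (limma adjusted p = 0.0113 and 0.0212), with their highest values in mimic replicates 3, 4 and 6. Without those libraries they measured 0.11 and 0.078 and did not pass (limma adjusted p = 0.0853 and 0.294). Setdb1, the histone methyltransferase that Trim28 recruits, measured 0.097 ± 0.037 (SE; limma adjusted p = 0.0551), with all mimic libraries above all controls; it too was chosen for its role after its value was seen.

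Of 8 measured genes that encode or resemble TRIM proteins under other names, 3 were higher and 0 lower, beside 15.4% and 14.6% of all tested genes. Among these 3, Rnf135 is also counted with the higher sensing genes above. Pml, the nuclear body protein also called TRIM19, went from 4.60 ± 0.11 (SD, n = 5) to 5.23 ± 0.12 (SD, n = 6), a rise of 0.63 ± 0.063 (SE; limma adjusted p = 1.23e-06). Mefv, which encodes pyrin, rose by 0.35 ± 0.073 (SE; limma adjusted p = 0.00252). Rnf135, or riplet, a RIG-I ligase related to Trim25, rose by 0.22 ± 0.073 (SE; limma adjusted p = 0.0321) with overlapping groups. This call was lost in 7 of the 20 alternatives, with an adjusted p of up to 0.0901, among them leaving out control replicate 2, control replicate 6, mimic replicate 5 or mimic replicate 6. Mid1, of the microtubule-binding class, measured -0.068 ± 0.19 (SE; limma adjusted p = 0.802).

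**Figure D5:**
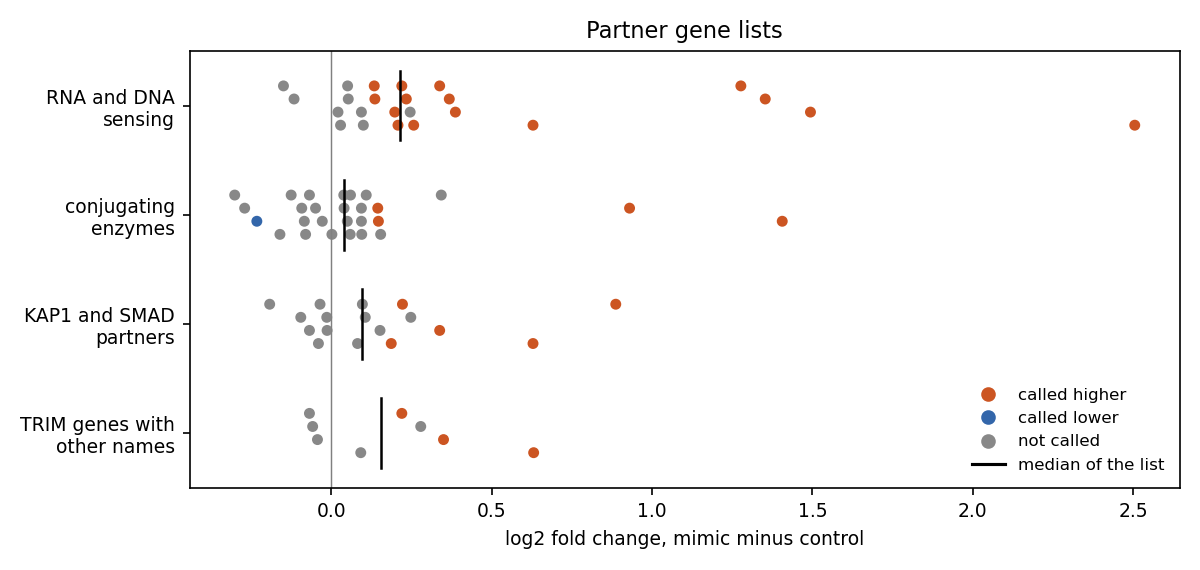
Log2 fold change (horizontal axis, mimic minus control) of each measured gene in the 4 partner lists; points are genes, colours mark the call and vertical lines the list medians. Irf7 at 2.51 is the highest, and the conjugating enzymes have the median nearest 0, 0.040.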

How the data were processed

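RNA of 5 control and 6 mimic libraries was compared. The tools named, per the submitters' processing notes, were STAR, featureCounts, Subread and edgeR. Their versions, the genome build and whether counting used strand are not given in the sources used here. Log2 CPM per library was deposited by the authors, with log2 fold changes, and p-values and adjusted p-values of their own test. The deposited signed fold, test statistic and log-odds score, the authors' values, were not used. From the values, each deposited log2 CPM is the log2 of whole reads plus 0.5 over a scaled total. Whole reads were recovered for 100% of values (within 0.01 read). Per the series' design text, 1 further sample was omitted by the submitters for improper fragmentation; it was not analysed here.

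The first row per gene was kept. Linear models with a group term were fitted with limma 3.58.1 (R 4.3.3; intensity trend, robust) to genes reaching a log2 CPM of -1 in 5 or more libraries, with Benjamini-Hochberg adjustment over 12969 genes and calls at an adjusted p below 0.05. The fit was tested on counts simulated with equal spread in both groups and no split among the mimic libraries. These data differ from that setting, so the simulation does not show how the fit handles such a split. Pairs of relatives were compared by two-sided exact permutation tests (scipy 1.17.1). Coordinates, exon lengths, overlaps and shared 50-base words came from GENCODE M21 (GRCm38), promoters from RefSeq (GRCm38.p6). The mature miR-150-5p sequence was not used here. Voom fits with sample weights used statmod 1.5.0. Replicate pairs differed beyond sampling noise (chi-square per degree of freedom 2.78 to 5.41 for controls and 2.57 to 44.1 for mimic libraries). The main fit used a common variance of both groups for each gene, so its SEs leave this difference out. Partner lists covered RNA and DNA sensing, conjugating enzymes, partners of Trim28, Trim24 and Trim33, and TRIM genes with other names. The members and lists were chosen with earlier results of these data known. Every tested Trim gene could be named, with the 4 called genes of smallest p in each partner list and Ddx58, Mavs, Ube2l6, Zc3hav1, Pml and Mid1. A gene that this rule names is not reported here.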

Additional observations from a re-analysis of the deposited data

Results flagged for a closer look

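In 84 groups of values (42 Trim genes in 2 groups of libraries), 3 held a library far from the others, where chance gives about 1 in 20 groups. Trim30a was high in control replicate 3, at a log2 CPM of 6.88 against 6.57 to 6.66 in the other controls, and all mimic libraries were above it. Trim65 was low in mimic replicate 5, at 3.35 against 3.51 to 3.56. Trim41 was low in mimic replicate 1, at 5.91 against 5.99 to 6.04.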

How the results depend on the processing

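Other scalings, filters, a pseudocount of 2 reads, a weighted voom fit, a replicate block and leaving out each library were planned; omitting mimic replicates 3, 4 and 6 together and a length correction were added after the data were seen. The Trim genes called higher numbered 14 to 17 and those called lower 4 to 5 with each library left out, and 2 were lower without mimic replicates 3, 4 and 6. Of the 19 called genes, 15 kept sign and call in every alternative; Trim6, Trim23, Trim27 and Trim47 did not. Of the 23 others, 5 were called somewhere (Trim7, Trim33, Trim44, Trim13 and Trim65). Signs turned for Trim17 (-0.042), Trim8 (0.019) and Trim37 (-0.096) without mimic replicates 3, 4 and 6, for Trim37 with the length correction (-0.032) and for Trim2 in the voom fit (0.050); with each library left out Trim29 ran from -0.004 to 0.054, Trim37 from -0.014 to 0.034 and Trim2 from -0.088 to 0.061. The cause was not tested. Lower sensing genes numbered 1 with total-read scaling, the stricter filter and the replicate block, 2 in the voom fit and 0 to 1 with each library left out. Higher conjugating enzymes numbered 2 with total-read scaling and without mimic replicates 3, 4 and 6, and 2 to 6 with each library left out. Lower ones numbered 2 with total-read scaling, the length correction and without those replicates, 4 in the voom fit and 1 to 4 with each library left out. Higher Trim28 partners numbered 8 in the voom fit, 2 without those replicates and 3 to 9 with each library left out, and lower ones 1 without those replicates and 1 with the length correction. Pairs of relatives past the threshold, 2 in all, ranged from 0 to 4 with each library left out and were 0 without mimic replicates 3, 4 and 6. With 1 control fewer the smallest adjusted p that 2 pairs can reach is 0.0571, and with 3 mimic libraries fewer no raw p is below 0.0357, so those counts say nothing of stability. Total-read scaling made 42.9% of all calls higher, not 51.3%. Same-numbered libraries shared no more than a number (correlations of their deviations -0.061 to 0.062), and with the replicate block, over 10 libraries, 1775 genes were higher and 1793 lower. Low reads limit the 25 members left out.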
